A study of Arabidopsis thaliana with 8 samples.

Results

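The PYR/PYL proteins (pyrabactin resistance 1 and its relatives) are the soluble receptors of abscisic acid (ABA), the hormone that rises in plants short of water. With ABA bound, a receptor closes over the active site of a clade A protein phosphatase 2C (PP2C). The SnRK2 kinases that the phosphatase had held inactive then phosphorylate ion channels and ABF-type transcription factors, so stomata close and drought genes are induced. PYR1, PYL1 and PYL2 are dimers that need the hormone to come apart, while the members from PYL4 onward studied here are monomers that can inhibit some phosphatases with little or no ABA.

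The receptors were followed as 9 genes chosen by locus name, PYR1, PYL1, PYL2 and PYL4 to PYL9, out of 24132 genes with an entry in at least 1 library. The libraries came from 3-week-old Arabidopsis thaliana of ecotype Columbia-0, either wild type (WT) or overexpressing the transcription factor VaWRKY14 (OE). Plants of each genotype were watered normally or left dry for 5 days, and each of the 4 groups had 2 libraries. The labels call the transgenic material a mixture and give no promoter for the transgene, whose level was not analysed here. The genotype field of droughted OE library 1 reads VaWRKY15, whereas its title and source read VaWRKY14, and it was kept in its titled group. The labels do not say whether the 2 libraries of a group came from separate plants, so p-values measure the spread between these libraries only. With 2 libraries per group, an unchanged gene can also show no overlap between groups. The share of all genes without overlap was not computed.

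Depth was 9591274 to 11378571 expected counts per library, and 3 counts corresponded to 0.242 to 0.312 CPM, the count of a gene per 1000000 counts of its library after TMM scaling (trimmed mean of M values). The tissue is given as whole plants, but 5 of 11 root markers had no entry in any library, among them the root-hair genes EXPA7 and RHD6. A further 2, CASP1 and MYB36, had at most 2 counts, whereas WOX5 had 1 to 10 counts and PHT1;4 had 3 to 15. SHR and SCR, which shoots express too, were present throughout at 126 to 383 counts. Most of the root markers were thus at or near 0, and a small amount of root tissue cannot be told apart from none. All 6 guard cell markers were present, with a summed level of 37.4 to 53.5 CPM. The largest part of that sum was KAT1 at 20.1 to 34.7 CPM, whereas HT1 had only 6 to 18 counts and ALMT12 8 to 34. In bulk tissue, fewer cells of a type and less RNA per cell cannot be told apart.

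All 9 receptor genes had counts in every library, and 8 passed the filter on low counts. PYL2 (AT2G26040, chromosome 2, 11094258 to 11095542), with 2 to 6 counts per library, did not pass and was not tested. The family has 14 genes in Arabidopsis. Of the other 5, PYL3 and PYL10 had 1 count each over all 8 libraries, PYL11 had 3, and PYL12 and PYL13 had 0. A 0 in 1 library alone allows up to 3 expected counts, and 0 in all 8 libraries allows fewer per library.

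Upstream sequence is shown for PYL5, PYL7 and PYL9, 3 of the receptor genes that passed the test in the drought comparisons below, since promoters are where hormone and WRKY response elements would lie. Each run is the 250 bases before the annotated gene start in RefSeq TAIR10.1, 5′ to 3′ on the gene's strand. Capitals mark 3 searched motifs on either strand: ACGTG, the core of the ABA response element, TTGAC, the core of the W-box bound by WRKY factors, and CCGAC, the core of the dehydration response element.
PYL5 (chr5:1608738-1608987, plus strand): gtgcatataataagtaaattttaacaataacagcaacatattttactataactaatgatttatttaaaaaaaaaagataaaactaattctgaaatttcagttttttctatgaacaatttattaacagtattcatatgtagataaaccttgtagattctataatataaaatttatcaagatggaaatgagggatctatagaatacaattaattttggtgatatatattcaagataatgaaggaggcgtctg
PYL7 (chr4:446728-446977, plus strand): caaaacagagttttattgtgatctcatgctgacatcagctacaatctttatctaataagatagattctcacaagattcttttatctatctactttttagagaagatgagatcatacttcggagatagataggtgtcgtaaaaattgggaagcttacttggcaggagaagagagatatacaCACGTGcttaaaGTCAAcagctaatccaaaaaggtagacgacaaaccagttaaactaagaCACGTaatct
PYL9 (chr1:141620-141869, plus strand): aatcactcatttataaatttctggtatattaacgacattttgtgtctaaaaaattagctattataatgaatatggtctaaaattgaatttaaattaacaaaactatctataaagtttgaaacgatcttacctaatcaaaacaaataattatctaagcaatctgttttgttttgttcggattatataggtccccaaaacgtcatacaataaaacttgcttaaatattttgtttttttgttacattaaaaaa

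PYL7 held 3 ACGTG matches, of which 2 overlap as the palindrome on both strands. In the same window PYL7, PYL4 and PYL6 each held 1 TTGAC match, and PYL5 and PYL9 held none of the motifs. Over the 8 receptor genes other than PYR1, ACGTG was present in 1, TTGAC in 3 and CCGAC in 0. Among the windows of all 27443 protein-coding genes the shares were 22.9%, 44.9% and 12.0%. In 1000 bases the motifs were present in 3, 7 and 3 of these 8 genes, against 54.4%, 88.1% and 37.4% of all genes. There ACGTG was matched in PYL7 (5 matches), PYL5 (3) and PYL9 (1). PYL7, PYL5 and PYL6 each held 1 CCGAC match, beside 3, 1 and 1 TTGAC matches. The PYL7 window shares 221 bases with the neighbouring gene AT4G01023.

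**Figure D1:**
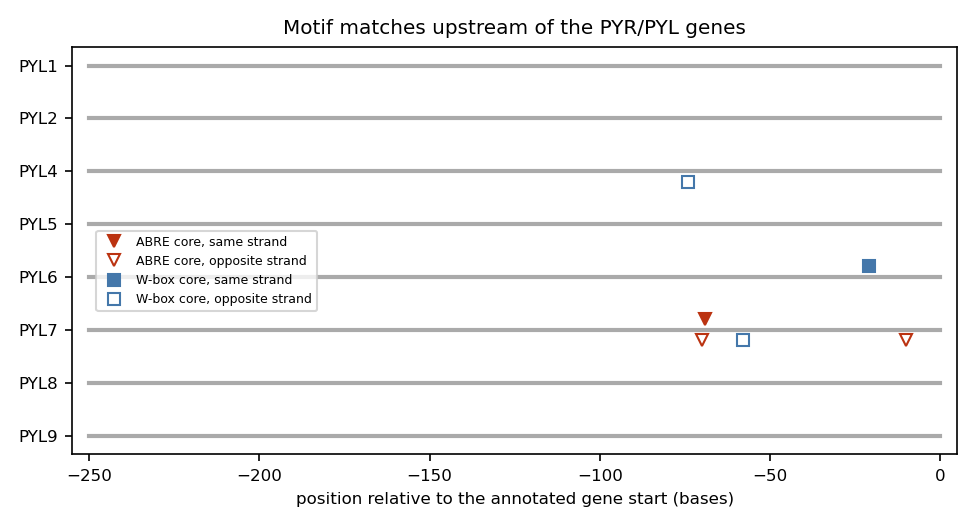
Positions of ACGTG (triangles) and TTGAC (squares) matches in the 250 bases before the annotated start of the 8 receptor genes other than PYR1, filled on the gene's strand and open on the opposite one; no CCGAC match was found. PYL7 holds 3 ACGTG matches and the others hold none.

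The genes' annotation also follows the family's branches. PYR1 (AT4G17870, chromosome 4, 9928587 to 9929875), PYL4 (AT2G38310, chromosome 2, 16049918 to 16051356), PYL5 (AT5G05440, chromosome 5, 1608988 to 1610527) and PYL6 (AT2G40330, chromosome 2, 16844588 to 16846194) are single-exon genes, and the coding part of PYL1 (AT5G46790, chromosome 5, 18983540 to 18984923) lies in 1 exon. PYL7 (AT4G01026, chromosome 4, 446978 to 448511) and PYL9 (AT1G01360, chromosome 1, 141870 to 143261, RCAR1 in the annotation) have 3 exons, and PYL8 (AT5G53160, chromosome 5, 21560601 to 21562709, RCAR3 in the annotation) has 2 or 3. PYL7 overlaps AT4G01030 on the opposite strand by 571 bases. AT4G01030 stood at 30.4 to 43.8 CPM and the use of strand in counting is not stated, so the PYL7 values may include its reads.

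Per kilobase of transcript, PYL8, known for its role in lateral root growth under ABA, was the most abundant receptor in watered WT plants at 49.1 ± 6.08 CPM per kilobase (SD, n = 2). PYR1, the founding member, followed at 37.8 ± 3.40 and PYL7 at 37.5 ± 0.572, and their libraries overlapped. PYL4 stood at 27.2 ± 5.92 CPM per kilobase. PYL5 at 16.8 ± 0.236 and PYL1 at 16.6 ± 0.345 also overlapped, above PYL9 at 9.61 ± 0.558. PYL6 at 0.995 ± 0.138 and PYL2 at 0.263 ± 0.0507 were far below the rest. PYL8 and PYR1 over all 8 libraries lay above 87.3% and 87.1% of the tested genes per kilobase, and PYL6 above 7.50%.

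In droughted WT plants PYR1 came first at 58.0 ± 7.53 CPM per kilobase, ahead of PYL8 at 48.1 ± 1.06, and its libraries lay above those of PYL8. In droughted OE plants PYR1 at 45.8 ± 4.09 and PYL8 at 42.9 ± 5.44 overlapped. PYL9 passed PYL5 in both droughted groups, at 17.6 ± 2.11 against 14.7 ± 1.33 in WT and 13.7 ± 2.82 against 9.07 ± 1.35 in OE.

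**Figure D2:**
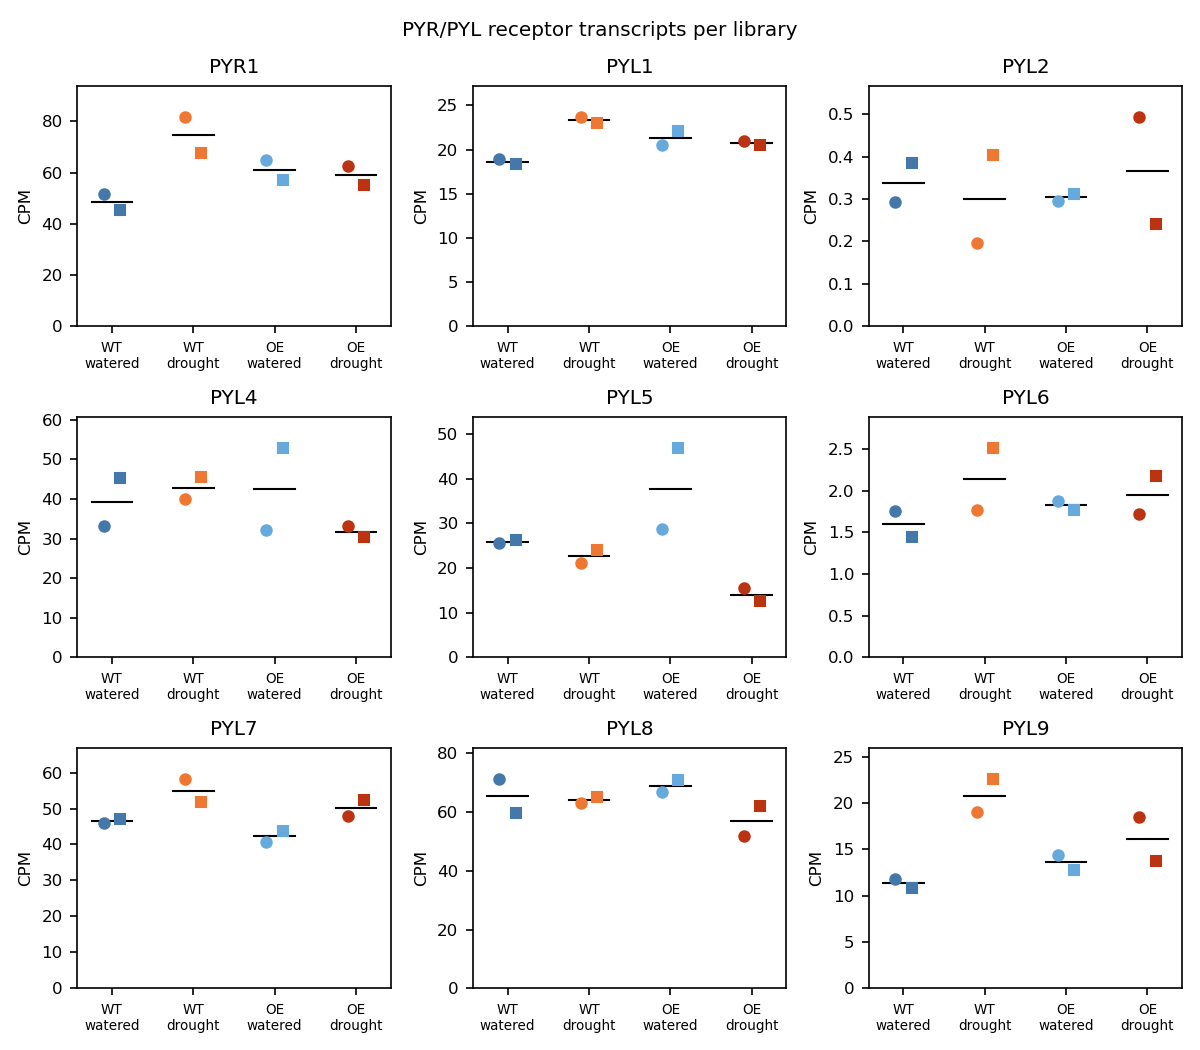
CPM of each receptor gene in every library, with circles for library 1, squares for library 2 and lines at the group means; each panel has its own axis from 0. PYR1 and PYL9 are highest in droughted WT plants, and PYL5 is lowest in droughted OE plants.

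Drought in WT plants was accompanied by more PYR1 and PYL9 transcript. PYL9, which promotes drought resistance and leaf senescence when overexpressed, had 11.8 and 10.9 CPM in the watered WT libraries and 19.0 and 22.6 CPM in the droughted ones. The groups did not overlap, and PYL9 rose by 0.88 ± 0.17 on the log2 scale (SE, n = 2 per group; edgeR adjusted p = 0.00285). PYR1 went from 51.8 and 45.6 CPM to 81.6 and 67.8 CPM, again without overlap. It rose by 0.62 ± 0.13 (edgeR adjusted p = 0.00462), but without droughted WT library 1, its highest, the change was 0.46 with an adjusted p of 0.0625.

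The other receptors did not pass the test in WT plants. PYL1, the closest relative of PYR1, stood at 18.9 and 18.4 CPM with water and 23.7 and 23.0 CPM in drought. These groups did not overlap, yet the log2 fold change of 0.32 ± 0.12 had an edgeR adjusted p of 0.104. PYL7 stood at 46.0 and 47.0 CPM with water and at 58.1 and 51.8 CPM in drought, likewise without overlap (log2 fold change 0.24 ± 0.11, edgeR adjusted p = 0.182). For PYL8 the log2 fold change was -0.03, with a 95% interval of -0.29 to 0.23. Those of PYL4 (0.13 ± 0.24), PYL5 (-0.19 ± 0.21) and PYL6 (0.43 ± 0.36, from 15 to 31 counts) had 95% intervals that included 0.

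In all, 2 of the 8 tested receptors rose and 0 fell in droughted WT plants by edgeR's quasi-likelihood test with Benjamini-Hochberg adjustment, where 5.63% of all tested genes rose and 7.37% fell. Their median log2 fold change was 0.28, and that of all genes 0.02. Leaf photosynthesis markers fell in the same libraries, from a sum of 52421 and 65316 CPM to 30819 and 22461 CPM, with 5 of 7 called. Flower markers went from a sum of 27.1 and 21.0 to 35.9 and 40.8 CPM, with 0 of 8 called. The part of these tissue and photosynthesis shifts in the receptor changes was not tested. Scaled by library totals alone, the median log2 fold change of all genes was 0.27 in this comparison and 0.37 in OE plants, against 0.02 in each with TMM. Over all genes 4062 then rose and 729 fell in WT plants, where TMM gave 1085 and 1420, and 7500 rose and 696 fell in OE plants, where TMM gave 1303 and 1911. PYL1 (0.57, adjusted p = 0.00776) and PYL7 (0.48, adjusted p = 0.00864) then passed as well, but relative to the median of all genes their changes were 0.30 and 0.22.

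In OE plants the receptor that changed with drought was PYL5, a monomeric receptor whose overexpression is known to raise drought tolerance. It had 28.6 and 46.8 CPM in the watered OE libraries and 15.4 and 12.5 CPM in the droughted ones. The droughted OE libraries were the 2 lowest of the series, and watered OE library 2 was the highest. PYL5 fell by 1.43 ± 0.21 on the log2 scale (SE, n = 2 per group; edgeR adjusted p = 0.0015). Without watered OE library 2 the change was -1.04 (edgeR adjusted p = 0.00203), and the adjusted p stayed under 0.05 without each of the 8 libraries in turn.

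PYL4, of the same branch and linked in the literature to jasmonate responses, was uneven in watered OE plants, at 32.1 and 52.8 CPM, and lower in drought, at 33.1 and 30.5 CPM. Its groups overlapped and its log2 fold change of -0.41 ± 0.24 did not pass (edgeR adjusted p = 0.297). Without watered OE library 1 the log2 fold change was -0.73, with library 2 at 52.8 CPM as the only watered OE library. Watered OE library 1, at 32.1 CPM, lay between the 2 droughted OE libraries. As with PYL5, watered OE library 2 had the highest PYL4 level of the 8 libraries. PYL6 was low in all 8 libraries, at 1.44 to 2.51 CPM.

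Neither of the receptors that rose in WT plants passed in OE plants with TMM scaling. PYR1 had 64.8 and 57.3 CPM with water and 62.7 and 55.3 CPM in drought, which overlap almost fully (log2 fold change -0.05, 95% interval -0.32 to 0.22). Scaled by library totals, the PYR1 value was 0.30, below the median of all genes under that scaling. PYL9 had 14.4 and 12.8 CPM with water and 18.5 and 13.8 CPM in drought, with a log2 fold change of 0.24 ± 0.17 (edgeR adjusted p = 0.348). By library totals PYL9 did pass in OE plants (0.59, edgeR adjusted p = 0.0176), with 0.22 left after the median of all genes was subtracted. PYL1 stood at -0.04 ± 0.12.

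PYL7 stood at 40.8 and 43.7 CPM in watered OE plants and 47.8 and 52.3 CPM in droughted ones. Those libraries did not overlap, and the log2 fold change of 0.25 ± 0.11 was about the size seen in WT plants, without passing (edgeR adjusted p = 0.151). By library totals PYL7 passed (0.60, edgeR adjusted p = 0.0016), with 0.23 left after that subtraction. PYL8 had 66.7 and 70.9 CPM with water and 52.0 and 62.2 CPM in drought, with a log2 fold change of -0.27 ± 0.12 (edgeR adjusted p = 0.148). By edgeR, 0 of the 8 receptors rose and 1 fell in OE plants, beside 6.77% and 9.92% of all tested genes. The median log2 fold change was -0.04 over the receptors and 0.02 over all genes.

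Flower markers differed most between these OE groups, at 6.02 and 22.6 CPM with water and 81.5 and 60.0 CPM in drought, and 6 of 8 rose. Leaf photosynthesis markers all fell, 7 of 7, and of the guard cell markers 1 of 6 fell. Root markers summed to 46.7 and 48.6 CPM with water and 49.5 and 47.9 CPM in drought. Nearly all of that sum was SHR and SCR, which shoots express too (12.4 and 33.6 CPM in watered OE library 1). The sum therefore does not measure root tissue. Whether flower tissue contributed to the PYL5 values was not tested.

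**Figure D3:**
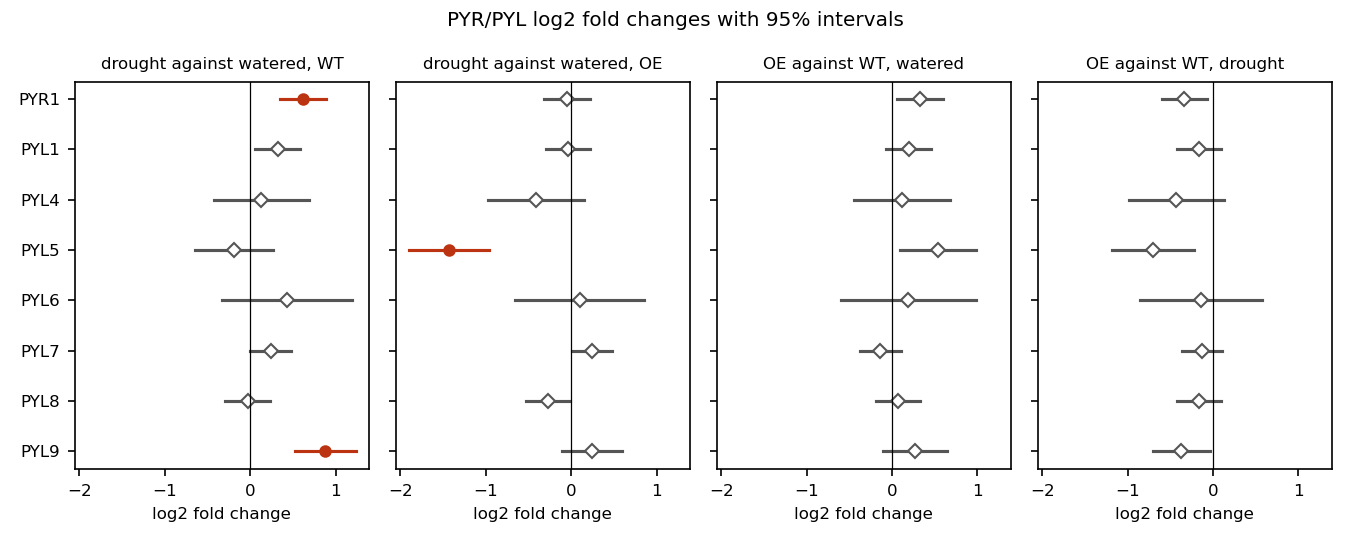
Log2 fold changes of the 8 tested receptors with 95% intervals in 4 comparisons; filled circles mark an edgeR adjusted p under 0.05 and open diamonds the others. PYR1 and PYL9 are marked for drought in WT plants and PYL5 for drought in OE plants.

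With the drought responses of both genotypes averaged, which sets 4 libraries against 4, PYL9 rose by 0.56 ± 0.12 and PYL5 fell by 0.81 ± 0.15 on the log2 scale (edgeR adjusted p = 0.00262 for each). PYR1 at 0.28 ± 0.09 (adjusted p = 0.0284) and PYL7 at 0.24 ± 0.08 (adjusted p = 0.034) also passed with edgeR. DESeq2 called neither (adjusted p = 0.0897 and 0.156). So 3 of 8 receptors rose and 1 fell, where 12.3% of all tested genes rose and 14.2% fell. By library totals 10016 genes rose and 1037 fell, where TMM gave 2369 and 2743. The PYR1 call held in 4 of the 8 fits without 1 library and the PYL7 call in 1, whereas those of PYL9 and PYL5 held in all 8.

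Whether the genotypes responded differently to drought was asked with the difference of the responses, OE minus WT. PYL5 had the largest difference, -1.24 ± 0.30 on the log2 scale (edgeR adjusted p = 0.131), followed by PYR1 at -0.67 ± 0.18 (0.135) and PYL9 at -0.64 ± 0.24 (0.282). None of the 8 passed edgeR's test, in which 0.0987% and 0.0623% of all tested genes were called with a positive and a negative difference. At an unadjusted p under 0.05, 3 of the 8 receptors differed, beside 12.5% of all tested genes. DESeq2 called 1, PYL5 (adjusted p = 0.0312), and over all genes it called 75 with a positive and 75 with a negative difference. Without watered OE library 1 the PYL5 difference was -1.55, with library 2, the highest for PYL5, as the only watered OE library. The difference without library 2 is not given here. The drought response of PYL5 in OE plants alone, another measure, was -1.04 without library 2 against -1.43 with all libraries. By library totals 58 of all genes had a positive and 9 a negative difference, where TMM gave 19 and 12. PYL7 differed by 0.01, with a 95% interval of -0.33 to 0.34.

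Overexpression alone gave no called receptor. In watered plants PYL5 was at 28.6 and 46.8 CPM in OE and 25.6 and 26.1 CPM in WT, without overlap, with a log2 fold change of 0.54 ± 0.20 (edgeR adjusted p = 0.392). PYR1 was at 64.8 and 57.3 CPM in OE and 51.8 and 45.6 CPM in WT, also without overlap (0.33 ± 0.13, edgeR adjusted p = 0.386). For these uncalled genes the lack of overlap is a description only. With edgeR 0 of 8 passed, while 0.296% of all tested genes rose and 0.0935% fell, and DESeq2 called 0. At an unadjusted p under 0.05 there were 2 of 8, beside 10.2% of all tested genes. Of the 8 log2 fold changes 7 were positive, with a median of 0.19, where 50.0% of all tested genes were positive. The 95% interval for PYL8 was -0.19 to 0.33. By library totals 29 of all genes rose and 31 fell, where TMM gave 57 and 18, and in droughted plants 46 and 17, where TMM gave 31 and 26.

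In droughted plants PYL5 was at 15.4 and 12.5 CPM in OE and 21.2 and 24.1 CPM in WT. Its libraries did not overlap, and the log2 fold change of -0.70 ± 0.22 had an edgeR adjusted p of 0.324 in the fit to all libraries. With only the 4 droughted libraries in the fit it was 0.0242, but over all genes that fit called 151 as risen and 82 as fallen. The fit to all libraries called 31 and 26. PYR1 stood at -0.34 ± 0.12 (edgeR adjusted p = 0.392) and PYL9 at -0.37 ± 0.16 (0.489). With edgeR 0 of 8 passed, beside 0.161% and 0.135% of all tested genes that rose and fell, and DESeq2 called 0. At an unadjusted p under 0.05 there were 3 of 8, beside 9.2% of all tested genes. All 8 log2 fold changes were negative, with a median of -0.25, where 51.1% of all tested genes were negative. These comparisons share libraries with the drought comparisons above and are not separate evidence.

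Summed per kilobase, the 9 receptors gave 199 and 193 CPM per kilobase in watered WT libraries and 237 and 232 in droughted ones. In OE plants the sum was 206 and 232 with water and 195 and 193 in drought. The groups of each genotype did not overlap, but the OE direction depends on scaling: by library totals the group mean went from 191 to 217 CPM per kilobase. The dimeric receptors PYR1, PYL1 and PYL2 made up 28.8% and 26.9% of the sum in watered WT plants and 35.6% and 31.6% in droughted ones. In OE plants their share overlapped, at 33.4% and 27.8% with water and 34.7% and 31.8% in drought. The branch of PYL4, PYL5 and PYL6 made up 20.4% and 29.4% in watered OE plants and 17.5% and 15.9% in droughted ones. In WT plants that share overlapped, at 20.5% and 25.5% with water and 18.0% and 21.1% in drought. These shares do not depend on scaling.

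The phosphatases that the receptors inhibit were compared next. Of 9 clade A PP2C genes, 7 were tested and 3 rose in droughted WT plants: PP2CA by 0.95 ± 0.13, HAI2 by 1.43 ± 0.30 and ABI2 by 0.56 ± 0.17 on the log2 scale (edgeR adjusted p = 0.000235, 0.00505 and 0.0346). In OE plants HAI2 (1.56 ± 0.29) and ABI2 (0.77 ± 0.16) rose, 2 of 7, with edgeR adjusted p = 0.00209 and 0.00496. PP2CA was already higher in watered OE than in watered WT plants, by 0.76 ± 0.13 (edgeR adjusted p = 0.0189). The ratio of summed receptor to summed PP2C transcripts per kilobase was 1.74 in both watered WT libraries and 1.47 and 1.41 in the droughted ones. In OE plants it was 1.45 and 1.71 with water and 1.17 and 1.25 in drought. The droughted libraries lay below the watered ones of their genotype, a ratio that library scaling cannot change.

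**Figure D4:**
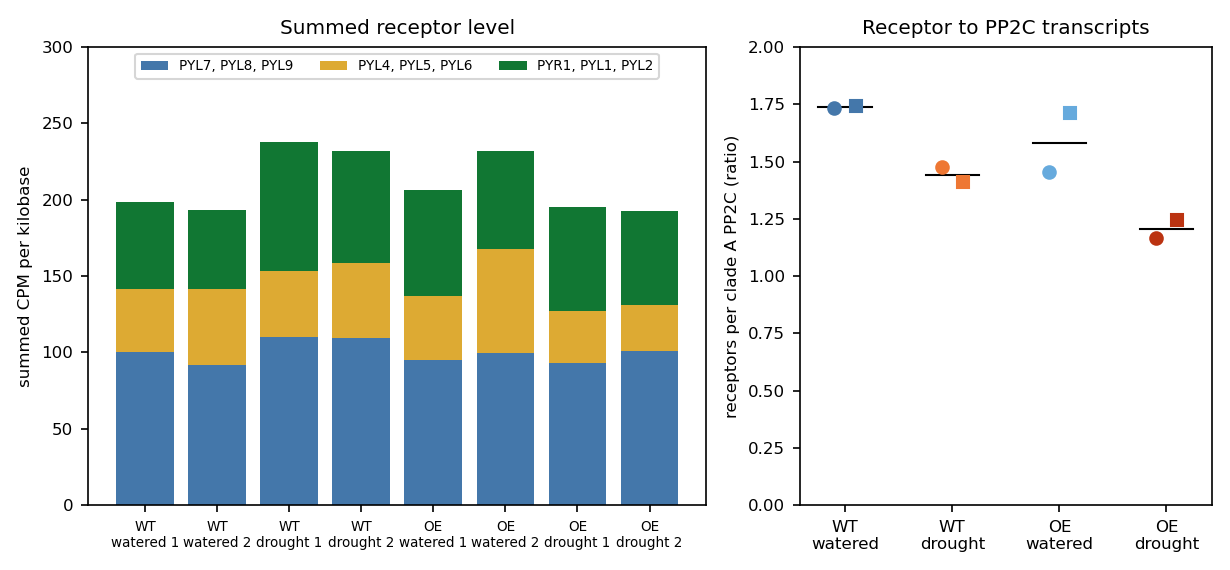
Left, summed CPM per kilobase of the receptors in each library, stacked by branch of the family; right, the ratio of that sum to the sum of the clade A PP2C genes, with circles for library 1, squares for library 2 and lines at the group means. The ratio falls from 1.74 to 1.41 and 1.47 in WT plants and reaches 1.17 in droughted OE library 1.

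Downstream of the phosphatases, 2 of 10 SnRK2 genes rose in droughted WT plants, OST1, the main kinase of stomatal closure, by 0.53 ± 0.13 and SNRK2.7 by 1.01 ± 0.32 (edgeR adjusted p = 0.0171 and 0.0499), and 0 of 10 in OE plants. Of 5 tested ABF and ABI factors, ABI5 rose in both genotypes, by 1.14 ± 0.25 in WT and 1.17 ± 0.27 in OE plants (edgeR adjusted p = 0.00666 and 0.00726). Among 9 tested genes listed for receptor turnover and modification, 0 were called in WT plants. In OE plants 1 fell, ELC (AT3G12400), an ESCRT component that sorts proteins to the vacuole, by 0.57 ± 0.13 (edgeR adjusted p = 0.00863).

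Of 12 tested genes of ABA synthesis, breakdown and transport, 3 rose and 1 fell in droughted WT plants. CYP707A2 and CYP707A1, which break ABA down, rose by 2.25 ± 0.25 and 1.40 ± 0.31, and ABCG25, an ABA exporter, by 0.82 ± 0.12 (edgeR adjusted p = 6.19e-05, 0.0187 and 0.00059). CYP707A3, of the same family and far more abundant, went from a mean of 84.5 to 41.8 CPM without being called (-1.02 ± 0.35, edgeR adjusted p = 0.14). CYP707A4 was not called either (1.10 ± 0.38, edgeR adjusted p = 0.072). With both genotypes averaged, CYP707A3 fell by 1.01 ± 0.24 (edgeR adjusted p = 0.0369), whereas CYP707A1, CYP707A2 and CYP707A4 rose. BGLU18, which releases ABA from its glucose ester, fell by 1.42 ± 0.22 (edgeR adjusted p = 0.00118). In OE plants 1 rose, ABCG25 by 0.66 ± 0.13 (edgeR adjusted p = 0.00254). NCED3, the drought-induced step of ABA synthesis, was not called for drought in WT (0.09 ± 0.21) or OE plants (-0.42 ± 0.19), with edgeR adjusted p of 0.834 and 0.14.

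Among 9 tested ABA output markers 5 rose in droughted WT plants, beside 5.63% of all tested genes, RD29A for example by 0.65 ± 0.13 (edgeR adjusted p = 0.00351). In OE plants 0 rose. RD26 was lower in drought in both genotypes without being called (-0.66 ± 0.32 in WT and -0.63 ± 0.31 in OE plants). P5CS1 stood at -0.12 ± 0.18 in WT and 0.28 ± 0.18 in OE plants, and RD29B, at 1 to 4 counts, was not tested. The cold and drought gene COR15A fell in droughted OE plants by 1.21 ± 0.21 (edgeR adjusted p = 0.00478). It stood 1.69 ± 0.22 higher in watered OE than in watered WT plants on the log2 scale (edgeR adjusted p = 0.0186). Of the 9 markers 3 were called higher in watered OE than in watered WT plants, beside 0.296% of all tested genes. Besides COR15A these were RD29A by 1.12 ± 0.13 and KIN2 by 1.12 ± 0.18 (edgeR adjusted p = 0.00101 and 0.0169). RD29A had a mean of 117 CPM in watered WT, 184 in droughted WT, 255 in watered OE and 225 in droughted OE plants. RAB18 was at 2.42, 5.07, 4.44 and 5.93 CPM in that order and was not called in either genotype (edgeR adjusted p = 0.057 and 0.389). With both genotypes averaged, 2 of the 9 markers rose. RAB18 was called there (0.75 ± 0.23, edgeR adjusted p = 0.0295) and RD29A was not (0.24 ± 0.09, edgeR adjusted p = 0.0642).

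The genes whose log2 CPM followed the summed receptor level most closely over the 8 libraries, among 15247 genes at a mean of 5 CPM or more, were AT4G19390 (Pearson r = 0.965), AT3G09085 (0.959), AT5G24570 (0.94), COPT6 (0.936) and AT3G62550 (0.934). Most opposed were FAS2 (-0.97), ARO4 (-0.939) and CNBT1 (-0.938). PYL9, 1 of 2 receptors with the smallest p for drought over both genotypes, was followed most closely by AT2G47885 (0.987), AT2G47880 (0.984) and AT5G47050 (0.982). These are the extremes of a search over all genes in 8 libraries that share drought, depth and scaling, and they are given as a description.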

How the data were processed

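Each library has 1 table from the authors. Its deposited columns are, by their headers, a length in bases, an expected count that is not scaled for depth, and FPKM, the authors' value scaled for length and depth. Listed without their roles in the submitters' processing notes are STAR, HISAT2 2.0.5, featureCounts, edgeR and the build TAIR10. Genes absent from a table were given 0 counts.

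Expected counts were rounded and fitted in R 4.3.3 with edgeR 4.0.16: filterByExpr (minimum count 10) kept 19259 genes, TMM scaling, 1 robust quasi-likelihood model with 4 group means on all 8 libraries, two-sided tests, Benjamini-Hochberg adjustment over all tested genes, calls at an adjusted p under 0.05. The standard error is the log2 fold change divided by the square root of F, and 95% intervals use it. CPM values use TMM-scaled library totals, and CPM per kilobase divides by the mean deposited length. FPKM was used only as an alternative scale. The biological coefficient of variation was 10.2%. DESeq2 1.42.0, other scalings, no filter, a replicate block, 2-group fits and omission of each library were alternatives. In simulated counts for drought in WT plants (19111 genes) the model was tested on known changes: 44% of genes changed 1.5-fold and 98% of those changed 2-fold were recovered. The changed genes, 50 per fold change, had a mean of at least 50 counts, and all genes were given the same spread. These shares therefore do not give the recovery for each receptor, such as PYL6 with 15 to 31 counts.

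Members and gene lists were chosen with earlier results of these data known. All members were named, with up to 4 called genes per list, 4 fixed markers (RD29A, RAB18, NCED3, PP2CA) and some uncalled genes of the lists. Same-numbered libraries did not deviate together (correlations -0.0804 to 0.0625), so numbers were not treated as pairs. Within groups, libraries differed by more than counting error (chi-square per degree of freedom 5.64 to 9.56). Upstream windows and exons were read from RefSeq TAIR10.1, and locus names matched for 23929 of 24132 genes. The upstream window of PYR1 is not reported here.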

Additional observations from a re-analysis of the deposited data

How the results depend on the processing

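Over 48 log2 fold changes of single receptors and 656 alternative values, 608 kept direction and side of the threshold, 14 lost and 10 gained a call, 24 uncalled values changed sign, and no called value reversed. The counts of called receptors were 2 (drought in WT), 1 (drought in OE) and 4 (both averaged), and with a replicate block they were 2, 1 and 4 as well. Scaling by library totals gave 4 in WT plants, 3 in OE plants and 5 for the average, with PYL1 gained, and DESeq2 gave 2 for the average and 1 for the difference of responses. Omitting 1 library at a time gave 1 to 2 in WT, 1 to 2 in OE, 2 to 4 for the average, 0 to 1 for OE against WT in drought and 0 to 1 for the difference. Fitting only the libraries compared gave 1 for OE against WT in drought, where 151 of all 19049 tested genes rose and 82 fell. For the average, DESeq2 called 1179 of all genes as risen and 2310 as fallen. For OE against WT with water the count of called receptors was 0 in each alternative run. The cause of these differences was not tested. In counts simulated for drought in WT plants 44% of 1.5-fold changes were recovered, among genes with a mean of at least 50 counts and the same spread. The recovery for each receptor can differ, and the other comparisons were not simulated. PYL2 could not be tested at its depth, and PYL7 may share reads with AT4G01030.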

Other observations

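The deposited length of PYL8 was not constant between libraries, whereas those of the other 8 receptors were. How the authors made it is not given in the sources used here. It was 1315 and 1326 bases in watered WT libraries and 1329 and 1336 bases in droughted ones, and 1329 and 1330 bases in watered OE against 1340 and 1348 bases in droughted OE libraries. The droughted libraries had the longer value in both genotypes, without overlap. In RefSeq TAIR10.1 the PYL8 transcripts span 1262 and 1748 exon bases. The difference was not tested, and the values rest on 621 to 804 expected counts per library.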
